A study of Mus musculus with 6 samples.

Results

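Rybp occupancy in Dnmt1-knockout mouse embryonic stem (ES) cells was set directly against that in Eed-knockout ES cells, on 4 of the 6 promoter arrays of the series. The 4 arrays were taken by their genotype labels, 2 from Dnmt1-KO cells and 2 from Eed-KO cells, and no wild-type array was used. Both lines carry constitutive knockouts, Eed in one and Dnmt1 in the other. Cells were kept in serum medium with ESGRO, on irradiated mouse embryonic fibroblasts or on gelatin, and the labels do not say which culture had feeders, nor whether either line is 1 clone. Chromatin fixed with formaldehyde was precipitated with an antibody against Rybp. After amplification, precipitated DNA (IP) carried Cy5 and input DNA Cy3 on the same array (ChIP-chip). The promoter set has 2 designs with different probes, so every promoter was measured on 1 array per knockout. There were no replicates, so differences are given without p-values and their precision is limited by having 1 array each.

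Rybp (RING1 and YY1 binding protein) belongs to variant forms of Polycomb repressive complex 1 (PRC1), which ubiquitinates histone H2A. Canonical PRC1 is recruited through histone H3 lysine 27 trimethylation, which is placed by PRC2 and depends on its core subunit Eed, whereas variant PRC1 complexes reach CpG-rich promoters without that mark. Dnmt1 copies CpG methylation after DNA replication, so the Dnmt1-KO cells keep PRC2 while losing most DNA methylation, and the Eed-KO cells keep Dnmt1 while losing H3K27 methylation. In ES cells Polycomb complexes occupy the promoters of silent developmental regulators, and a variant complex with Mga, E2f6 and Pcgf6 (PRC1.6) occupies promoters of germ-line genes.

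The level of a probe was log2 of IP over input signal, centred on the median of its array and divided by the array's median absolute deviation (MAD), so levels are in MAD units and 0 is the middle of the array. The division matters here. The MAD of the log2 ratios was 0.248 and 0.255 on the Eed-KO arrays and 0.538 and 0.502 on the Dnmt1-KO arrays, so 1 unit stands for a larger step in log2 ratio in Dnmt1-KO. The Dnmt1-KO arrays came from another scanner model (G2505C, against G2505B) and another version of the extraction software, so genotype and scan cannot be told apart. Input signal was well above background at 88.1% and 85.8% of Dnmt1-KO probes and at 99.95% and 99.95% of Eed-KO probes, under a multiplier of 13 and of 2.6. Each promoter was given 1 window: among all runs of 6 adjacent probes within 3000 bp, the one with the highest mean of both knockouts. The promoter's level is the average of those 6 probes. This gave 16319 promoters. The deposited files assign probes to genes, and in 261 promoters the window lay over 10 kb from the annotated start. On the Dnmt1-KO arrays 492 and 401 probes were saturated, and on the Eed-KO arrays 0 and 0. Each carries the SD over its 6 probes, and each difference (Dnmt1-KO minus Eed-KO) an SE from the same 6 probes. That SE holds the scatter of probes alone, not of cultures or hybridisations. Percentiles rank a promoter among those of its design, and for given windows they do not depend on the units of an array. The choice of window does, because it uses the scaled levels of both knockouts. A promoter in the upper 5% of a knockout is called top-ranked, and a difference of at least 2 units in size with all 6 probes in 1 direction is called higher or lower. The promoters of the targeted genes lie outside any stated deletion and do not check the genotypes. Rybp had levels of 2.03 in Eed-KO and 2.93 in Dnmt1-KO, Eed 1.47 and 3.5, and Dnmt1 -0.18 and 1.68.

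The windows on which the comparison turns differ in sequence as well as in level. From each of 9 of them 1 probe is shown, with CG dinucleotides, the target of Dnmt1, in capitals. Probe sequences are as deposited in the Eed-KO files. Positions are those of the Dnmt1-KO files, which name no genome build, and the probe strand is not stated. The first 3 probes are from promoters high in both knockouts, and each is the highest of its window over both. They lie at chr3:94498804-94498848 inside Tdrkh, chr3:40805532-40805579 inside Slc25a31 and chr5:138017729-138017781 inside Zcwpw1, within 105 bp of the annotated start.
Tdrkh: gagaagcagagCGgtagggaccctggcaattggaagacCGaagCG
Slc25a31: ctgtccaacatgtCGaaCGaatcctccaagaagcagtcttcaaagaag
Zcwpw1: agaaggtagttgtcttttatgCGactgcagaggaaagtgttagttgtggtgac
The next 3 are from promoters much higher in Dnmt1-KO, and each has the largest difference of its window. They lie at chrX:7104971-7105015 upstream of the Hdac6 start, chr13:111516248-111516292 inside Plk2 and chr16:20339841-20339885 inside Abcc5. The Hdac6 probe was matched to the RefSeq promoter of that gene, at chrX:7948012-7948056 on the plus strand of GRCm38.p6.
Hdac6: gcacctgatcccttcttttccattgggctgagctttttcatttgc
Plk2: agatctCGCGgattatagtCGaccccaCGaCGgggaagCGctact
Abcc5: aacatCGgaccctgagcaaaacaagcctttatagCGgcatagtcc
The last 3 are from promoters much lower in Dnmt1-KO, each again the probe of largest difference. They lie at chr15:97832006-97832054 inside Col2a1, chr15:98619484-98619538 inside Wnt1 and chr9:118325934-118325993 upstream of Eomes.
Col2a1: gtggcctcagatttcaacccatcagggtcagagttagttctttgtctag
Wnt1: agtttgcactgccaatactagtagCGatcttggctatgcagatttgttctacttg
Eomes: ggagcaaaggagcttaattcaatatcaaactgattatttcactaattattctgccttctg
Of the 3 probes from lower promoters, that of Wnt1 holds 1 CG and the other two hold 0. The Plk2 probe holds 6 and rose from the 80.5th percentile of Eed-KO probes to the 99.99th of Dnmt1-KO probes. The Hdac6 probe holds 0 CG and went from the 27.0th to the 99.98th percentile, the highest rise among these 9 probes.

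The RefSeq promoter of Tdrkh (GRCm38.p6, chr3:94412994-94413293, plus strand) holds 25 CG in 300 bases and that of Plk2 (chr13:110394794-110395093, plus strand) holds 31, against a median of 7 over all RefSeq promoters of that length. Both are shown with CG in capitals, as one promoter high in both knockouts and one high in Dnmt1-KO only.
Tdrkh promoter: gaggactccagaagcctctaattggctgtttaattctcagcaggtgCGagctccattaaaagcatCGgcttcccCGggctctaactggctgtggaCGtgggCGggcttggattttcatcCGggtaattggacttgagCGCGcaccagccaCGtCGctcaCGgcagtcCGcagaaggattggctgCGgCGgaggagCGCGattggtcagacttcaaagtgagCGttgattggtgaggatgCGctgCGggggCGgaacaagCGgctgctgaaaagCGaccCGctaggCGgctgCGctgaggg
Plk2 promoter: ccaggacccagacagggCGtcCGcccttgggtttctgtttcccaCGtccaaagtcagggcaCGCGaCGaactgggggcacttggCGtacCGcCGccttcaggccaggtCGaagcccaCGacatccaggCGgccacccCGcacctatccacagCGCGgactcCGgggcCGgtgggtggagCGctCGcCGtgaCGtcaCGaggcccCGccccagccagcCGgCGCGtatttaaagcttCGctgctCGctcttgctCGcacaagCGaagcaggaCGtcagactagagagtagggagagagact
Both are CpG-rich, and only the first was top-ranked in both knockouts.

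The same promoters tended to rank high in both knockouts, but most of the top-ranked ones of one knockout were not top-ranked in the other. In each knockout 817 promoters were top-ranked (5.01% of all). Of these, 337 were top-ranked in both (2.07% of all promoters, 41.2% of either list). Promoters that were top-ranked in Eed-KO had a median percentile of 93.2 in Dnmt1-KO, and those top-ranked in Dnmt1-KO had 93.1 in Eed-KO. Only 25 and 22 of them fell below the median of the other knockout. Spearman's rho over promoters was 0.69 on design 1 and 0.67 on design 2, as a description over promoters that share arrays. Over single probes it was 0.42 and 0.41. With each knockout measured at its own best window 374 promoters were shared, and with the trend on GC content removed 383.

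Levels in Dnmt1-KO were higher at most windows. By the rule of 2 units, 1296 promoters (7.94%) were higher in Dnmt1-KO and 271 (1.66%) were lower. In windows with the lowest mean in place of the highest, the same rule gave 226 higher (1.40%) and 559 lower (3.47%), so lower calls were the rarer kind at peaks and the commoner kind at troughs. The median difference over all promoters was 0.57 (quartiles -0.26 and 1.36). The direction depended on which knockout chose the promoters. When promoters were chosen on 3 probes of a window in Eed-KO and measured on the other 3, the median difference was -0.74, and when chosen in Dnmt1-KO it was 1.26. Before scaling, 13423 of 16319 promoters had the higher log2 ratio in Dnmt1-KO, with a median difference of 0.61. Of the 271 lower promoters 200 were also lower in log2 ratio before scaling, and 71 were not. The counts moved strongly with the treatment of the arrays. Without scaling 6303 were higher and 75 lower, after normexp background correction 5271 and 45, and with probes turned into normal scores by rank 338 and 106.

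**Figure D1:**
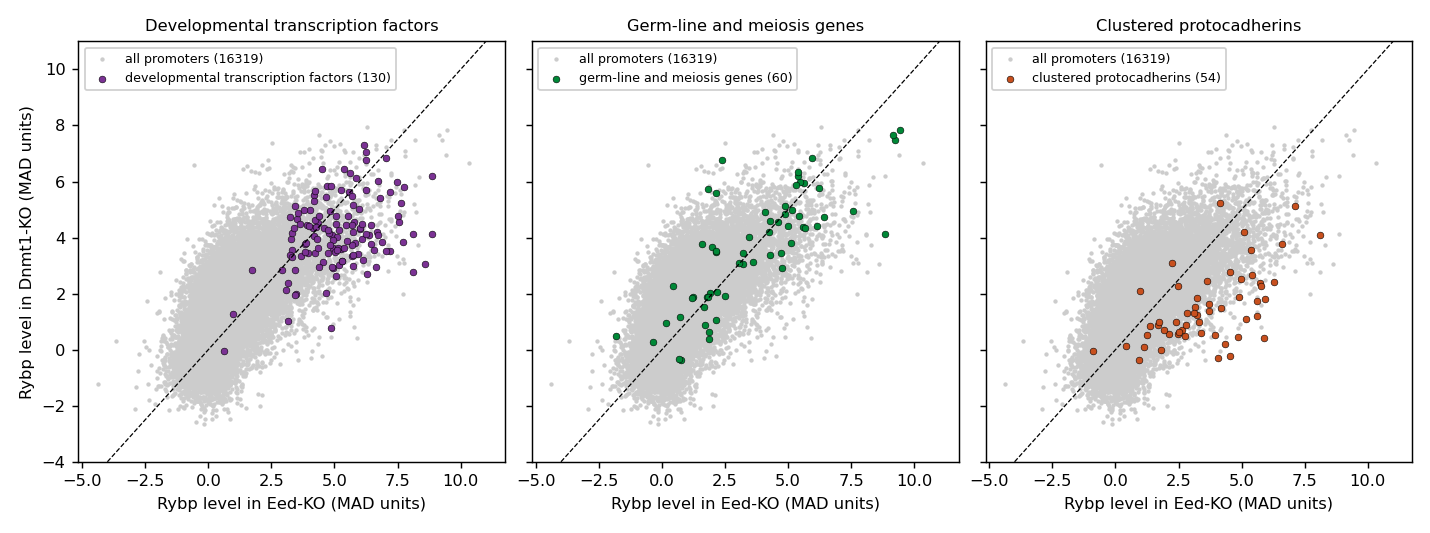
Rybp level of each promoter in Eed-KO (x axis) and Dnmt1-KO (y axis), in MAD units, with all 16319 promoters in grey, 1 gene list in colour in each panel and the line of equal levels dashed. Of the 130 developmental factors 24 are called lower (18.5%, against 1.66% of all promoters). Of the 54 protocadherins 50 lie below the line, and the germ-line genes have a median difference of -0.05.

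Of the 8 promoters highest in both knockouts, 3 are of genes used in germ cells. By mean percentile they were Zcwpw1, Paqr9, Slc25a31, Tdrkh, Fzd2, Nefl, Ajm1 and Sstr1. Tdrkh, a Tudor-domain gene of the piRNA pathway, had 9.15 ± 1.92 (SD over 6 probes) in Eed-KO and 7.66 ± 0.92 in Dnmt1-KO. Zcwpw1, which reads histone marks at meiotic recombination sites, had 9.44 ± 3.44 and 7.83 ± 1.23. Slc25a31, the germ-cell ADP/ATP carrier, had 9.24 ± 2.13 and 7.49 ± 1.75. These 3 were above the 99.9th percentile in both arrays, and their differences of -1.49, -1.61 and -1.75 units did not reach the called size. In Dnmt1-KO 3 of 6 probes were saturated at Tdrkh, 1 at Zcwpw1 and 0 at Slc25a31. With saturated probes left out the differences were -1.03, -1.41 and -1.75. Among the rest, the Wnt receptor gene Fzd2 had 7.77 and 7.85, the neurofilament gene Nefl 7.79 and 7.08, and the somatostatin receptor gene Sstr1 7.79 and 6.93. Paqr9 had 8.20 and 7.49, and Ajm1, an apical junction gene, 9.40 and 6.94.

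Germ-line and meiosis genes as a list ranked alike in the knockouts. Of 60 promoters 28 were top-ranked in Eed-KO, 24 in Dnmt1-KO and 20 in both, against 5.01%, 5.01% and 2.07% of all promoters. Their median difference was -0.05, against 0.57 over all promoters. By scaled level 3 were higher (5%) and 2 lower (3.33%), against 7.94% and 1.66% of all. Among piRNA pathway genes, Tdrd1 had 5.43 in Eed-KO and 4.76 in Dnmt1-KO, Asz1 5.60 and 4.39, and Mael 5.33 and 5.87. The germ-cell RNA-binding factor Dazl had 5.41 and 6.20, and the germ-cell helicase Ddx4 5.40 and 6.33. The synaptonemal complex genes Sycp1 and Sycp3 had 5.96 and 6.85, and 4.60 and 4.54. In all of these the 2 levels differed by less than the called size. The list had members apart on both sides. Taf7l, a testis form of a general transcription factor subunit, rose from 2.37 ± 1.62 in Eed-KO to 6.75 ± 3.89 in Dnmt1-KO (difference 4.38 ± 1.65 SE), with 1 saturated probe in Dnmt1-KO. Its difference was 2.31 with saturated probes left out and -1.09 with windows chosen on Eed-KO. The meiotic recombinase gene Dmc1 had 1.81 and 5.72 and Boll 2.13 and 5.58, with probes on both sides, so neither was called. Lhx8, an oocyte and forebrain factor, went the other way, from 8.86 ± 1.15 to 4.14 ± 0.75, and the testis histone gene H2bc1 from 7.58 ± 1.71 to 4.96 ± 0.81.

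At most germ-line promoters the peak stood in the same place in both knockouts. Among the 37 of them in the upper 10% of either knockout, the windows chosen separately in each lay a median of 0 bp apart, and 31 lay within 500 bp. That median was 285.5 bp over the 337 promoters top-ranked in both knockouts, and 322.5 bp over 29 protocadherins in the upper 10%. Mean probe levels over the list peaked at the start, with 3.21 in Eed-KO and 3.53 in Dnmt1-KO from 0 to 500 bp, and fell to 0.60 and 0.12 from 1500 to 2000 bp.

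**Figure D2:**
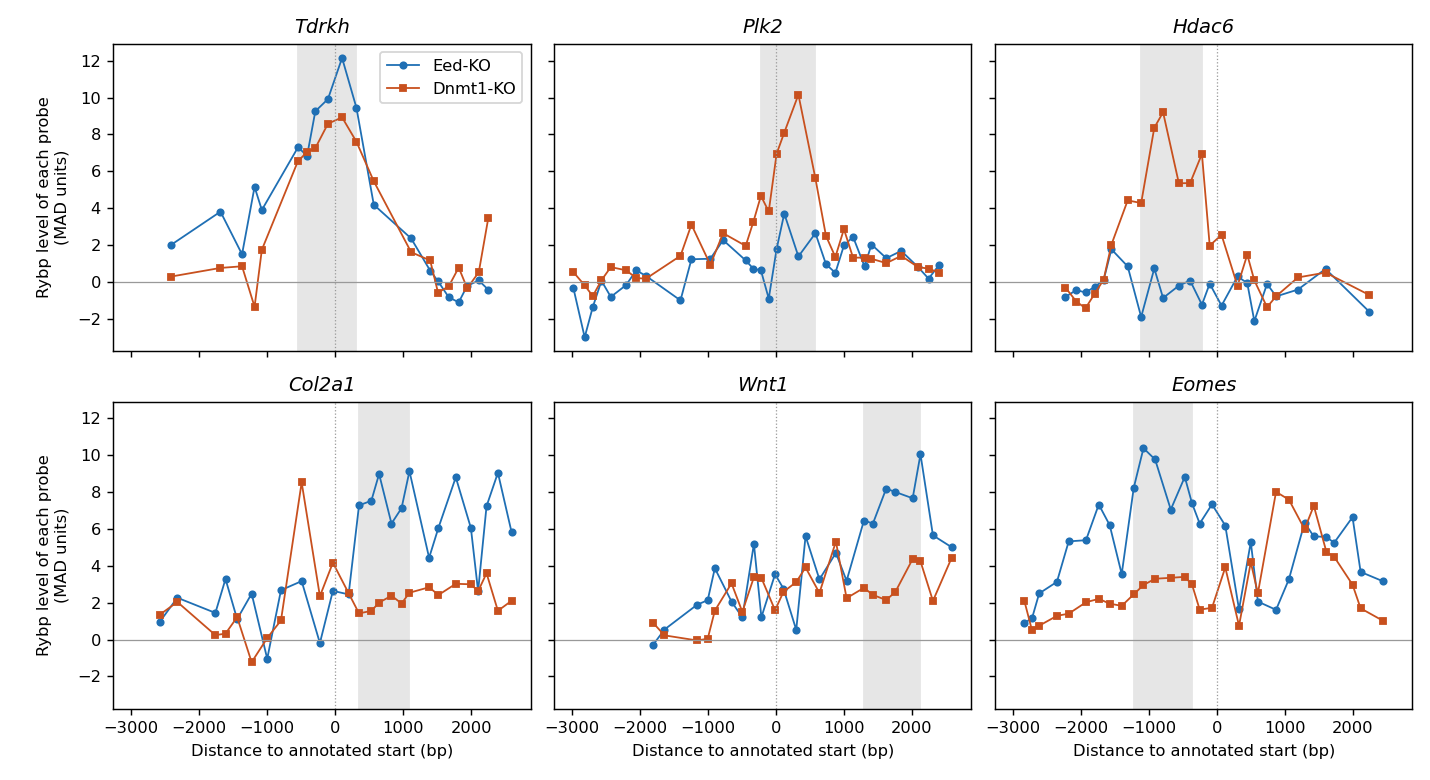
Rybp level of every probe within 3000 bp of the annotated start at 6 promoters, in MAD units against distance in bp, for Eed-KO (circles) and Dnmt1-KO (squares), with the window shaded. Tdrkh has 1 peak in both, Plk2 and Hdac6 peak in Dnmt1-KO alone, and Col2a1, Wnt1 and Eomes are higher in Eed-KO through their windows.

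Developmental transcription factors ranked lower in Dnmt1-KO than in Eed-KO. Of 130 promoters 97 were top-ranked in Eed-KO and 48 in Dnmt1-KO, 39 of them in both, against 5.01% of all promoters in each. Their median percentile was 97.5 in Eed-KO and 93.1 in Dnmt1-KO. By scaled level 24 of the 130 (18.5%) were lower and 0 were higher, against 1.66% and 7.94% of all promoters. The median difference was -0.96, against 0.57 over all. Before scaling, none of the 130 was called lower and 74 were called higher, against 0.459% and 38.6% of all promoters. After normexp it was 0 and 72, against 0.275% and 32.3%. The list's median then lay 0.93 and 1.48 units above that of all promoters, in place of below it. The order of the ranks held in both, with 91 and 54 top-ranked without scaling and 81 and 56 after normexp.

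Factors of mesoderm and of neurons are both among the 24 lower promoters of this list. Eomes, a T-box factor of mesendoderm, had the highest level of its design in Eed-KO, 8.60 ± 1.31, and 3.07 ± 0.36 in Dnmt1-KO, a difference of -5.53 ± 0.55 (SE). The homeobox genes Bsx and Nkx3-2 had 4.85 and 0.76, and 8.10 and 4.12. Tbx20, a heart T-box factor, went from 6.65 to 2.95, Foxf1, a forkhead factor of lateral mesoderm, from 7.18 to 3.52, and Gbx2, a hindbrain factor, from 7.06 to 3.53. All 6 probes were lower in each. The windows of Tbx20 and Gbx2 lay at -3407 and -2960 bp from the start. Some members had the higher value in Dnmt1-KO, none past the called size. Gata3 had 6.19 in Eed-KO and 7.29 in Dnmt1-KO, the proneural gene Neurog1 5.39 and 6.46, and Neurog3, the endocrine pancreas factor, 4.50 ± 1.65 and 6.45 ± 0.63, the highest difference in the list at 1.95 ± 0.83. The windows of Gata3 and Neurog3 lay at -5071 and -3803 bp.

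Levels differed in the flanks of these promoters and little at their starts. Within 500 bp after the start, mean probe levels of the developmental factors were 3.53 in Eed-KO and 3.58 in Dnmt1-KO. From 1500 to 2000 bp before the start they were 3.15 and 1.64, and from 2000 to 2500 bp after it 3.57 and 2.04. Median probe percentiles in these steps, in the same order, were 95.8 and 95.2, 94.0 and 81.4, and 95.6 and 84.0. Over all promoters the mean levels in these steps were 0.90 and 1.67, -0.03 and -0.20, and -0.06 and -0.24. A shift toward Dnmt1-KO at the start, relative to the flanks, was thus seen over all promoters too. It was seen in Hox genes as well, with 3.12 and 3.20 after the start and 2.22 and 1.01 before it. For developmental factors in the upper 10% of either knockout, the windows chosen separately in each knockout lay a median of 640.5 bp apart. Of these 122 promoters, 49 had them within 500 bp. At Eomes these windows lay at -786.5 bp in Eed-KO and 1329.5 bp in Dnmt1-KO. Unlike the list mean, Eomes also differed at its start, where a probe at -71 bp was at 7.33 and 1.72. The window used for both knockouts, with probes at -1221 to -365 bp from the Eomes start, was far lower in Dnmt1-KO. Probes 870 and 1059 bp after the start were at 8.01 and 7.59 in Dnmt1-KO and at 1.61 and 3.27 in Eed-KO. With each knockout at its own best window Eomes had 8.60 and 6.35, a difference of -2.26. For Lhx8 the difference was still -4.54 and for Wnt1 -4.46.

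**Figure D3:**
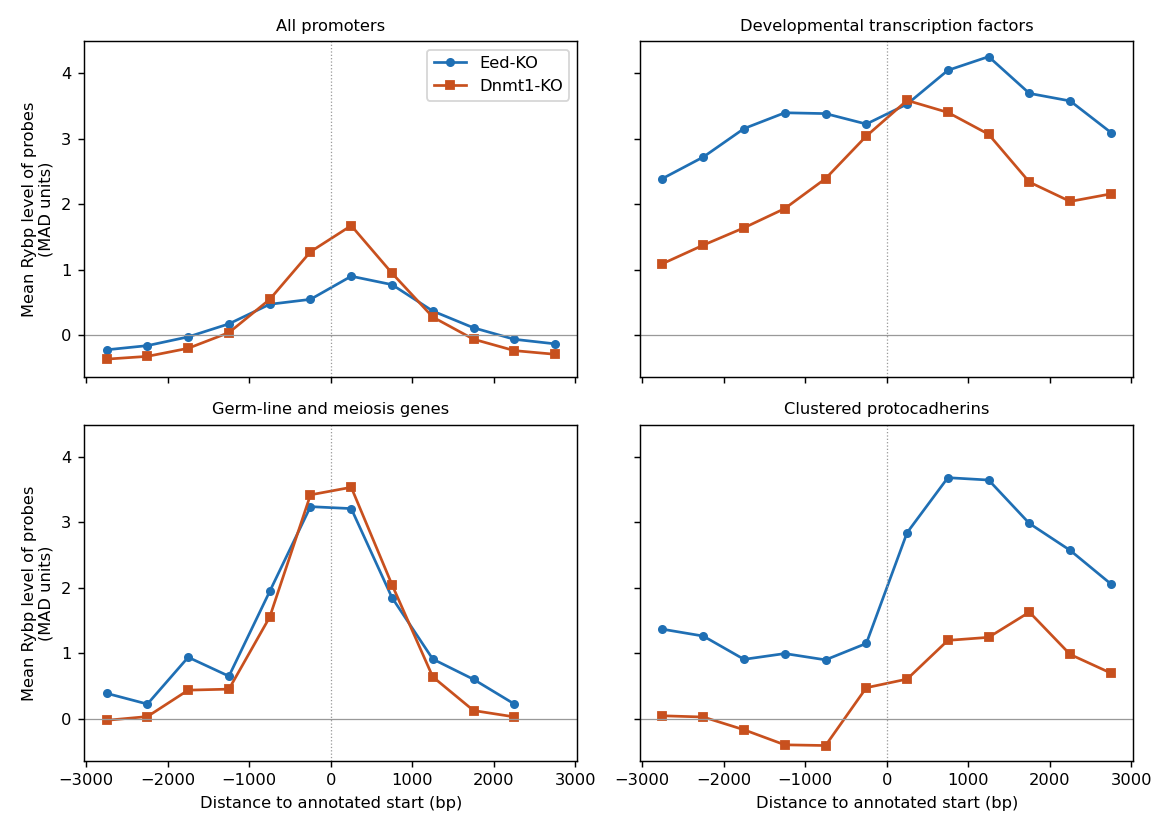
Mean Rybp level of probes in 500 bp steps of distance from the annotated start, in MAD units, for Eed-KO (circles) and Dnmt1-KO (squares) over 4 groups of genes. In these units developmental factors have nearly equal levels from 0 to 500 bp and lower levels in Dnmt1-KO on both sides. All promoters have 0.90 in Eed-KO and 1.67 in Dnmt1-KO from 0 to 500 bp. Germ-line genes have the same narrow peak in both, and protocadherins are lower in Dnmt1-KO in every step.

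Hox and signalling genes moved in part the same way. Of 32 Hox promoters 16 were top-ranked in Eed-KO, 10 in Dnmt1-KO and 5 in both, against 5.01%, 5.01% and 2.07% of all promoters. By scaled level 2 were lower (6.25%) and 0 higher, against 1.66% and 7.94% of all promoters, with a median difference of -0.34. The 2 were in the Hoxb cluster, Hoxb9 with 4.77 and 2.11 and Hoxb1 with 4.28 and 1.71. The 7 Hoxb promoters had a median of 4.28 in Eed-KO and 2.66 in Dnmt1-KO, and a median difference of -2.19. The 9 Hoxa promoters had medians of 4.16 and 4.86, but a median difference of -0.30, with 6 of 9 below 0. Among 68 promoters of signalling and morphogen genes, 25 and 15 were top-ranked, against 5.01% of all promoters in each knockout. Of the 68, 5 were higher and 5 lower (7.35% each, against 7.94% and 1.66% of all promoters), and the median difference was -0.35. The share of higher ones was near that of all promoters. The ligand genes Wnt1 (7.77 ± 1.37 to 3.09 ± 0.96), Fgf9 (7.10 to 2.81), Gdf6 (5.75 to 1.59), Wnt11 (5.45 to 3.19) and Bmp7 (6.45 to 4.24) were the 5 lower ones. Before scaling, the log2 differences at these windows were -0.43, -0.40 and -0.57 for Wnt1, Fgf9 and Gdf6. For Wnt11 and Bmp7 they were above 0, at 0.37 and 0.68. The 5 higher ones were the hedgehog ligand Ihh (4.46 to 7.11) and its receptor gene Ptch1 (3.15 ± 1.71 to 5.99 ± 0.78), the Nodal inhibitor Lefty1 (1.89 to 4.70), Fgf3 (3.35 to 5.67) and Fgf17 (1.44 to 4.09). With windows chosen on Eed-KO the Ptch1 difference was -2.69. The medians of both lists lay below that of all promoters, and above it without scaling and after normexp.

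The clustered protocadherins, cell-surface adhesion genes of neurons that lie side by side on chromosome 18, had the largest fall of any list. Of 54 promoters 21 (38.9%) were lower in Dnmt1-KO and 0 were higher, against 1.66% and 7.94% of all promoters. Their median difference was -1.95, and 50 of 54 were below 0. The median percentile went from 91.4 in Eed-KO to 36.9 in Dnmt1-KO. Of the 54, 20 were top-ranked in Eed-KO and 2 in Dnmt1-KO, against 5.01% of all promoters in each. Pcdha5 went from 5.89 ± 1.20 to 0.42 ± 1.39, Pcdha4 from 4.52 ± 1.74 to -0.23 ± 0.37, Pcdhga5 from 5.62 to 1.20 and Pcdhb19 from 4.87 to 0.46. Many of these windows lay away from the named start, those of Pcdha5 and Pcdha4 at -6458 and -4540 bp, and the windows chosen in Eed-KO at a median of -3543 bp over the 29 members in the upper 10%. All 3 clusters took part, with median levels of 4.34 and 1.18 for 10 Pcdha promoters, 2.97 and 0.79 for 22 Pcdhb promoters and 4.07 and 2.20 for 22 Pcdhg promoters. The highest difference among members in the upper 10% was at Pcdhac2, a C-type member, with 4.16 and 5.24. Before scaling 39 of the 54 still had the lower log2 ratio in Dnmt1-KO, against 2896 of 16319 promoters. These 39 were 9 of 10 Pcdha, 18 of 22 Pcdhb and 12 of 22 Pcdhg promoters. This was not particular to the list. Of 787 olfactory receptor promoters, which ranked low in both knockouts, 600 were lower before scaling. Their median log2 difference was -0.24, against -0.22 for the protocadherins. The median log2 differences of the clusters were -0.43, -0.30 and -0.0093, so the Pcdhg median was near 0. The median percentile of the list in Dnmt1-KO stayed between 24.0 and 49.5 in every alternative that held the list. Members are neighbours of similar sequence, and signal shared between their probes was not tested. Of 8 protocadherin genes outside the clusters, 0 were lower and 0 higher, with median levels of 5.82 and 4.50.

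Outside these lists, the largest falls were at Col2a1, the cartilage collagen gene, at the neuronal genes Astn2 and Npas3, and at Clstn1. Col2a1 went from 7.72 ± 1.11 in Eed-KO to 1.97 ± 0.44 in Dnmt1-KO (-5.75 ± 0.45 SE), the largest difference of all promoters named here on the low side. Its probes stayed between 2.62 and 9.13 from 354 to 2596 bp after the start in Eed-KO and between 1.42 and 3.59 in Dnmt1-KO, while a probe 489 bp before the start was at 3.17 and 8.52. Npas3, a neuronal bHLH-PAS factor, went from 8.29 ± 1.28 to 3.74 ± 1.07, Astn2 from 5.77 to 0.80 and Clstn1 from 7.57 to 3.08. At Clstn1 the direction turned when the 6 probes nearest the start were used, to 0.83.

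**Figure D4:**
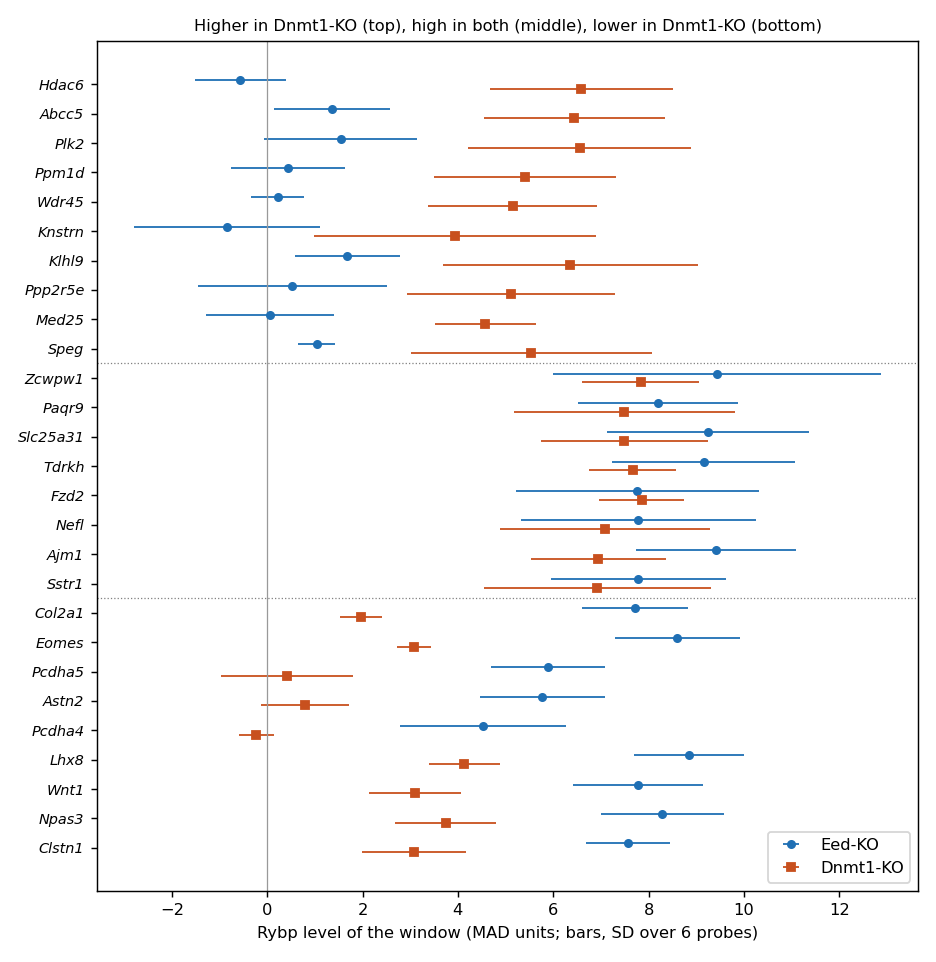
Rybp level of the windows of 27 promoters in Eed-KO (circles) and Dnmt1-KO (squares), in MAD units, with bars for the SD over 6 probes. The 10 upper promoters lie at 1.68 or below in Eed-KO and at 3.94 or above in Dnmt1-KO, the 8 middle ones are above 6.9 in both, and the 9 lower ones fall by 4.49 to 5.75 units.

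The largest rise in Dnmt1-KO was at Hdac6. Hdac6, a cytoplasmic tubulin deacetylase gene, had -0.57 ± 0.95 in Eed-KO and 6.58 ± 1.92 in Dnmt1-KO (7.15 ± 0.75 SE), and went from the 7.08th to the 99.7th percentile. In its window 2 of 6 probes were saturated and 1 had dim input in Dnmt1-KO, and with saturated probes left out the difference was 4.84. Plk2, a Polo-like kinase gene, went from 1.54 ± 1.6 to 6.55 ± 2.34, and Abcc5, a drug and nucleotide transporter gene, from 1.37 ± 1.22 to 6.44 ± 1.89. Next came the phosphatase genes Ppm1d (0.43 to 5.41) and Ppp2r5e (0.53 to 5.12), the autophagy gene Wdr45 (0.22 to 5.15), Knstrn, a spindle gene (-0.84 to 3.94), Klhl9 (1.68 to 6.36), the Mediator subunit Med25 (0.06 to 4.58) and the muscle kinase Speg (1.04 to 5.54). Of these 10 windows, 7 lay within 600 bp of the start. The Plk2 window was centred 120.2 bp after the start and that of Abcc5 at -23.8 bp, and those of Hdac6, Wdr45 and Med25 lay at -665.2, 5051 and -4035 bp. These distances are to the starts of the array annotation. The Hdac6 window probe shown above lies inside the RefSeq promoter of the gene. That promoter holds 20 CG in 300 bases, against a median of 7 over all RefSeq promoters. The Wdr45 difference was -1.37 over the 6 probes nearest the start.

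Higher and lower promoters differed in sequence and position. Windows of the 1296 higher promoters held a median of 3.81 CpG per 100 bases, those of the 271 lower ones 2.01 and all windows 2.37. Their median GC content was 50.7%, 42.5% and 46.7%. The quartiles of the window centres lay at -133.4 and 394.9 bp from the start for higher promoters, and at -1033 and 955.8 bp for lower ones. A saturated probe in Dnmt1-KO was in 8.56% of higher windows, 0.738% of lower ones and 3.41% of all, and with saturated probes left out 1251 promoters were higher and 275 lower. At the higher promoters the median Dnmt1-KO minus Eed-KO difference was 1.46 in log2 input signal and 3.04 in log2 IP signal, and at the lower ones 0.97 and 0.65. Over all promoters these were 1.16 and 1.85. Higher promoters were of low rank in Eed-KO, with a median percentile of 35.2, and reached 80.1 in Dnmt1-KO. Lower ones went from 94.5 to 34.9. These ranks follow in large part from the calls, which were made on the same levels.

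The same relation was seen probe by probe. Median percentiles rose with the number of CG in a probe in Dnmt1-KO throughout, from 41.4 at 0 CG to 85.4 at 3 and 93.5 at 8 or more. In Eed-KO they rose from 43.5 to 73.6 at 3 CG, were 73.8 at 4 and then fell to 66.2 at 8 or more. Among probes of 55 to 60% GC they went from 60.8 at 0 CG to 91.8 at 5 or more in Dnmt1-KO and from 56.1 to 81.6 in Eed-KO. Input signal moved with this too. Spearman's rho of input signal on GC content over probes was 0.36 and 0.34 in Eed-KO and 0.72 and 0.73 in Dnmt1-KO, and from 0 to 8 or more CG the median input difference went from -0.38 to 2.11 (log2) and the median IP difference from -0.46 to 3.61. The part of amplification, labelling and scanning in the relation was not tested. With the GC trend removed from each array 882 promoters were higher and 389 lower.

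**Figure D5:**
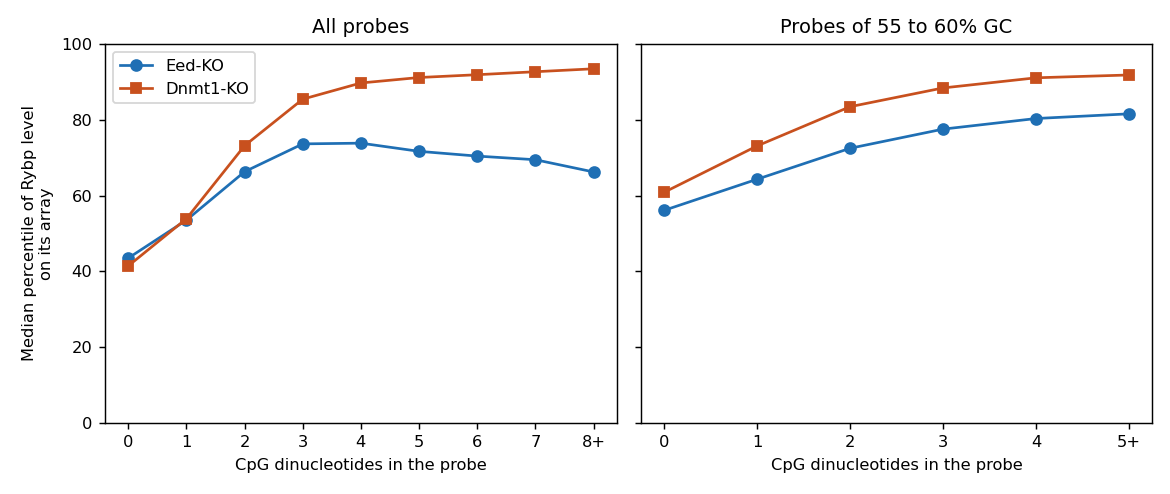
Median percentile of the Rybp level on its array (y axis) against the number of CpG dinucleotides in the probe (x axis), for Eed-KO (circles) and Dnmt1-KO (squares), over all probes (left) and probes of 55 to 60% GC (right). Dnmt1-KO rises to 93.5 over all probes, and Eed-KO is highest at 73.8 and ends at 66.2.

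Short motifs were then counted in the probes on both strands. The E-box CACGTG, bound by Mga with Max and by other bHLH factors, was in 8.90% of windows top-ranked in both knockouts, 7.08% of those top-ranked in Eed-KO only, 7.29% of those top-ranked in Dnmt1-KO only and 4.48% of all windows. The E2F motif TTCCCGCC was in 1 of the 337 shared windows and in 0.931% of all. Windows differ in CpG content, with a median of 3.81 CpG per 100 bases in the shared ones and 2.37 in all. Probes with CACGTG had median levels of 0.26 in Eed-KO and 0.66 in Dnmt1-KO, and other probes with as many CG 0.45 and 0.85. Within 1000 bp of a start these were 0.78 and 1.83, and 0.83 and 1.77. For TTCCCGCC over all probes they were 0.96 and 2.29, and 0.66 and 1.52. Probes holding GGGCGG, the core of the Sp1 box, had a median level of 0.07 in Eed-KO and 2.21 in Dnmt1-KO, where probes without it and with the same number of CG had 0.75 and 1.79. This motif holds a CG, as the 2 others do. A match is a description of the letters and shows no binding.

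Against 7.94% higher, 1.66% lower and a median difference of 0.57 over all promoters, 3 of 27 PRC1 subunit genes were higher (11.1%) and 1 lower (3.70%), with a median difference of 1.04. Pcgf3 went from -1.02 to 2.20, Scmh1 from 1.03 ± 1.46 to 3.95 ± 0.97 and Cbx6 from 0.99 to 3.13, while Cbx8 went from 4.37 ± 1.23 to 2.08 ± 0.93. Bcor, a corepressor subunit of PRC1.1, was top-ranked in both with 5.98 and 5.32. Of 12 promoters of PRC1.6 genes Ehmt2 was higher (0.72 to 3.56, in a window 12545 bp from its start) and Mga, the DNA-binding scaffold of the complex, lower (6.29 ± 2.21 to 4.04 ± 1.75). E2f6 had 3.08 ± 2.86 and 5.47 ± 1.95, with 5 of 6 probes higher, and Hdac2 was top-ranked in both with 7.16 and 5.44. None of 13 promoters of PRC2 genes was higher or lower. Their ends in the upper 10% were Rbbp7, with 4.44 and 2.87, and Epop, with 2.47 and 4.40. Among 22 DNA methylation and demethylation genes 3 were higher (13.6%, against 7.94% of all), namely Mbd3 (0.00 to 2.52), the window shared by Aire and Dnmt3l (0.11 to 2.68) and Gadd45a (1.29 ± 1.26 to 4.09 ± 0.80), and Uhrf2 was lower (6.15 ± 1.15 to 4.06 ± 0.98).

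Of 41 promoters of pluripotency genes 5 were higher (12.2%) and 0 lower. Their median difference of 0.41 was below the 0.57 of all promoters, of which 7.94% were higher. Utf1, an ES cell chromatin factor, rose from 4.39 ± 1.33 to 7.67 ± 1.03 and was top-ranked in both. Klf2 went from 1.79 to 4.36, Zfp281 from 0.71 to 2.86 and Lefty1 as above, and the fifth was the shared Dnmt3l window. Otx2, a factor of primed cells, had 5.96 ± 1.1 and 3.74 ± 0.86, with 1 of 6 probes higher. The ES cell markers Pou5f1 (1.90 and 2.03) and Sox2 (2.74 and 3.26) differed by less than the called size. Of 38 imprinted genes 4 were higher (10.5%) and 3 lower (7.89%), against 7.94% and 1.66% of all promoters, with a median difference of 0.24. Gnas, which encodes a G protein alpha subunit, had the highest level of its design in Eed-KO, 10.34 ± 1.82, against 6.68 ± 0.87, and remained at the 99.7th percentile in Dnmt1-KO. Grb10 went from 5.93 to 2.49 and Dio3 from 7.72 to 4.81. Peg3, expressed from the paternal copy, went from 1.30 to 4.25, Nap1l5 from 1.05 to 3.13, Tssc4 from -0.29 to 2.77 and Ppp1r9a from 0.61 ± 1.34 to 4.28 ± 1.48.

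Of 81 oxidative phosphorylation genes 11 (13.6%) were higher and 0 lower, with a median difference of 0.93, against 7.94%, 1.66% and 0.57 over all promoters. The rises started from the bottom of the range, as at Atp5j (-0.87 to 2.07). Only Atp5d (0.98 ± 0.66 to 4.66 ± 1.13) and Cox8c were top-ranked in Dnmt1-KO, as were 5.01% of all promoters. Of 82 ribosomal protein genes 2 were higher, Rps24 (-0.47 to 2.51) and Rps21 (0.62 to 2.96), and 0 lower. Their median percentile was 58.7 in Eed-KO and 40.1 in Dnmt1-KO. Among 250 Zfp genes 16 were higher (6.4%) and 2 lower (0.80%), both below the shares of all promoters, from Zfp503 (6.34 ± 1.84 to 3.05 ± 0.69) to Zfp37 (0.88 ± 0.88 to 4.0 ± 0.69). The falls named for Eomes, Lhx8, Gnas, Cbx8, Mga, Uhrf2 and H2bc1 turned to higher values without scaling, where windows were chosen anew, and likewise after normexp. At the windows used here, the log2 differences before scaling were -0.65 at Eomes and -0.07 at Cbx8, and above 0 at the other 5. Histone genes had 1 higher, H1f10 (1.52 ± 1.13 to 4.39 ± 1.51), and 1 lower, H2bc1, of 54.

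Lists of silent tissue genes stayed low in both. None of 57 terminal differentiation genes and none of 787 olfactory receptor genes was top-ranked in either knockout, with median differences of -0.0032 and -0.24. Of 37 promoters of fibroblast genes, the feeder cell type, 6 were top-ranked in each knockout and 2 in both. Over all promoters these shares were 5.01% and 2.07%. Of the 37, 2 were higher (5.41%) and 3 lower (8.11%), against 7.94% and 1.66% of all. Col5a1 had 2.51 ± 2.71 and 7.36 ± 1.73, and Prrx1 5.28 ± 1.48 and 2.01 ± 0.56. Occupancy of a promoter does not measure the number of feeder cells in a culture.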

How the data were processed

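Rybp ChIP-chip was read from 4 arrays. The authors deposited scanner output, and per the file headers it holds processed intensity values of the red (IP) and green (input) channels and the log10 ratio of red over green. The submitters' processing notes name Agilent Feature Extraction 9.5.3.1, as do the Eed-KO files, whereas the Dnmt1-KO files name 10.1.1.1. No source used here gives the genome build. Control spots and 203 probes with outlier flags or no value were left out of 474380, and 738 had no position. The log2 ratio of the processed intensities was centred on the median of each array and divided by its MAD. Gene accessions were named through RefSeq (16948 of 17601 matched), and promoter sequences come from RefSeq, GRCm38.p6. Genes were named by a rule: the 10 highest and 10 lowest differences among promoters in the upper 10% of either knockout with all 6 probes one way, the 8 of highest mean percentile, both ends of each list, and the genes Dnmt1, Eed and Rybp. Of these, 2 promoters are not reported here. Other genes named were chosen after their values were seen. The comparison and the lists were chosen with earlier results of these data known. With 1 array per knockout and design no test was made. Scripts were tested on simulated data with Python 3.11.15, numpy 2.4.6, pandas 2.3.3, R 4.3.3 and limma 3.58.1.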

Additional observations from a re-analysis of the deposited data

How the results depend on the processing

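No paired analysis was possible because each knockout has 1 array per design and the comparison comes from no test. Against 337 shared top-ranked promoters, 1296 higher, 271 lower and 6 of 18 lists with a median above that of all promoters, the alternatives gave these values. Without scaling there were 6303 higher, 75 lower and 12 lists above, and after normexp 5271, 45 and 12, while the median over all promoters moved from 0.57 to 1.96 and 1.72. Ranks gave 338 and 106. Runs of 4 probes gave 2184 and 518, windows chosen on Eed-KO 344 and 1124, and windows chosen on Dnmt1-KO 2360 and 68. A called size of 1.5 units gave 2002 and 458, and of 3 units 326 and 77. The upper 1% shared 46 promoters and the upper 10% shared 826. Design 1 alone gave 178 shared, 635 higher and 132 lower with 7 named promoters, and design 2 alone 159, 661 and 139 with 12. Each promoter lies on 1 design, so these are parts of the same values and no check of them. Without bins of shifted input 3324 promoters were left, with 92 shared (2.77%), 255 higher (7.67%) and 66 lower (1.99%), 3 of 13 lists above, and 4 of 4 named promoters in the same direction. Relative to all promoters, list medians turned to 0.93 (developmental factors), 1.08 (Hox), 0.94 (signalling) and 0.89 (germ-line) without scaling, and to 1.48, 1.1, 1.48 and 1.07 after normexp. Without scaling these differences turned: Eomes 5.83, Lhx8 0.0874, Ajm1 4.02, Gnas 2.94, Otx2 1.03, Cbx8 2.90, Mga 1.76, Uhrf2 1.36 and H2bc1 1.6. After normexp these did: Eomes 4.49, Lhx8 3.36, Ajm1 5.99, Hoxb9 2.13, Gnas 4.68, Otx2 2.31, Cbx8 1.31, Mga 2.33, Uhrf2 3.1, Zfp503 2.79, H2bc1 1.42 and Prrx1 0.87. With the 6 probes nearest the start Clstn1 had 0.83, Wdr45 -1.37, Hoxb9 0.51, Gnas 0.41, Cbx8 1.24 and Uhrf2 1.98. With windows chosen on Eed-KO Ppm1d had -0.63, Wdr45 -1.27, Ptch1 -2.69, Taf7l -1.09 and Ppp1r9a -0.26, and with windows chosen on Dnmt1-KO Eomes had 1.74, Otx2 0.21, Cbx8 0.95 and Zfp503 0.76. With the GC trend removed the terminal differentiation list had 0.0583 and Ppp1r9a -0.00379. Where a value moved, the cause was not tested. Each knockout's own windows, and input bins after removal of the GC trend, were added after seeing the data.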

Other observations

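Around Hdac6 on chromosome X, a region looked at because Hdac6 had the largest rise, 6 of the 34 other promoters within 500 kb (17.6%) were higher in Dnmt1-KO, against 64 of 549 on the chromosome without Hdac6 (11.7%) and 7.94% of all promoters. No run of 4 or more adjacent called promoters was found there. Besides Wdr45 they included Wdr13, which went from 0.35 to 4.57, and Tbc1d25, which went from 0.13 to 4.42. Pcsk1n, between them, was lower, with 5.61 in Eed-KO and 1.35 in Dnmt1-KO. On chromosome 18, which holds the clustered protocadherins, 27 of 402 promoters (6.72%) were lower, against 1.66% of all. Of the 27, 21 were clustered protocadherins, the list described above.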
